A study of Rattus norvegicus with 12 samples.

Results

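Insl3, Rln1, Rln3, Rxfp1 and Rxfp2, the relaxin family peptides and receptors read in this data set, were followed in the ovaries of 12 female Sprague Dawley rats. The 5 genes were found by their names among the 19730 genes with FPKM values (fragments counted per kilobase of transcript and scaled to the mapped fragments of a library), and each name matched 1 gene. They were selected on measured values, since the levels of Insl3 and Rln1 in these libraries were known beforehand. Their differences from the PCOS libraries are therefore described with no test. Only PCOS-MV vs Control was tested for them. Its libraries were among those whose levels were known, so these p-values are not independent of the choice. Insl3 and Rln1 had a mean of at least 1 FPKM over the 12 libraries, while Rln3, Rxfp1 and Rxfp2 had a lower mean and were read as low signals.

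All rats were wild type and 15 weeks old, and each group held 4 rats with 1 library per rat. The control rats were untreated and ate standard food. The PCOS rats received oral letrozole, an aromatase inhibitor that blocks the step from androgen to estrogen, at 1 mg/kg/day together with a high-fat diet for 30 days. The PCOS-MV rats had the same induction and then received mogroside V (MV), a sweet triterpene glycoside of the monk fruit, at 600 mg/kg/day by gavage for a further 30 days. Rats counted as PCOS models had been picked by vaginal smears, and all ovaries were taken at the end of the study. The day of the estrous cycle on which each ovary was taken is not given in the sources used here, nor is what the PCOS rats received while the other group was given MV. Letrozole and the diet came together in both groups, so their parts cannot be told apart.

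INSL3 and relaxin are small secreted peptides built like insulin, with an A and a B chain cut from a longer precursor. INSL3 is made by the theca cells around growing follicles, where it is tied to androgen production, and it signals through RXFP2, a receptor present on theca cells and oocytes. Relaxin, encoded by Rln1 in the rat, is a hormone of the corpus luteum that loosens connective tissue and widens vessels, above all in pregnancy, and its receptor is RXFP1. Both receptors belong to the leucine-rich repeat receptors, like those for LH and FSH, and both can raise cyclic AMP. Relaxin-3, the product of Rln3, is mainly a peptide of the brain whose own receptor is RXFP3.

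The RefSeq promoter table of the GRCr8 assembly held 5 of the 9 family genes looked for, 2 of them members. The 250 bases before the annotated start are shown for Insl3 and Rxfp2, a ligand and its receptor, because they were the 2 members with a promoter there. The Insl3 window is chr16:18432939-18433188 on the plus strand, and the Rxfp2 window is chr12:10023099-10023348 on the minus strand. Capitals mark matches on either strand to any of 5 motifs. These were TATAA for the TATA box, AGGTCA as the core motif shared by many nuclear receptors, GATAA for the family of factors named after it, the box motif CCAAT, and finally GGGCGG for the box bound by factors like SP1.
Insl3: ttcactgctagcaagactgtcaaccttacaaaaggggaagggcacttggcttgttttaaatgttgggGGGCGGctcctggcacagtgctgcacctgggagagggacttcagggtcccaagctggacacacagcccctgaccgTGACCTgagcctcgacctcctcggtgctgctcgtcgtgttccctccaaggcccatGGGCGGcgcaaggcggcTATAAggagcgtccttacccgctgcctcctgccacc
Rxfp2: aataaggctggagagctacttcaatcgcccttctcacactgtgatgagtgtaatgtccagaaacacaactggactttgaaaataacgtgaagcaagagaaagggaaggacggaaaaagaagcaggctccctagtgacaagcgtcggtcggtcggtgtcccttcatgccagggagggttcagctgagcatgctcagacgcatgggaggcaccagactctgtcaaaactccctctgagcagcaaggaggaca
The Insl3 window held TATAA at 36 to 32 bases before the start, AGGTCA on the opposite strand (read as TGACCT) at 108 to 103 bases, and GGGCGG at 183 to 178 and at 53 to 48 bases. The Rxfp2 window held no match to these letters. Of the 33469 promoters in the table, 24% held TATAA, 14.1% AGGTCA, 23.5% GATAA, 34% CCAAT and 30.5% GGGCGG in the same window. The matches describe the sequence and do not show that a factor bound there.

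The libraries were of similar size. FPKM summed to 339830 to 373758 per library, and 17576 to 18247 genes had a value above 0. The steps between the lowest FPKM values placed the depth at about 30320000 to 37150000 fragments per library, an estimate on which the fragment numbers given below rest, since 38.1% to 42.4% of the low values lay within 0.05 of a whole fragment against 10% for evenly spread values. The limit that such small numbers set covers counting error only. The ovary was recognisable in every library by Inha, a granulosa cell subunit of inhibin (387.6 to 987.8 FPKM), and by the oocyte coat gene Zp3 (2.99 to 6.18 FPKM). Control replicate 3 stood apart. Pax8, a marker of oviduct epithelium, was at 10.7 FPKM there and at 0.46 to 0.870 FPKM in the other control libraries, and the cilia gene Tppp3 was at 59 against 1.73 to 12.3 FPKM. Of the 4 cilia genes found, all were highest in this library, and the muscle gene Des was at 78.8 against 19.1 to 27.2 FPKM. The values of Rxfp1 and Rxfp2 are given with and without it. Other values include it unless stated.

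Insl3 mRNA was low in the ovaries of control and PCOS-MV rats and was among the most abundant mRNAs in those of PCOS rats. The file places Insl3 (ENSRNOG00000018757) on chromosome 16 from 20121352 to 20122696 on the plus strand, with 2 exons and a transcript of 595 bases. The genome build of these positions is not given in the sources used here, and they differ from the GRCr8 positions of the promoters above. In the control group, Insl3 was at 8.84, 1.76, 4.00 and 8.20 FPKM in replicates 1 to 4. In the PCOS group it was at 1188, 923, 906 and 1110 FPKM. In the PCOS-MV group it was at 14.5, 6.27, 4.91 and 5.87 FPKM. All PCOS libraries lay far above every other library, and the control and PCOS-MV libraries overlapped.

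The group means of Insl3 were 5.70 ± 3.39 FPKM in Control, 1032 ± 139 in PCOS and 7.89 ± 4.45 in PCOS-MV (SD, n = 4 each). The PCOS mean was 181-fold above that of Control and 131-fold above that of PCOS-MV. On the scale of log2(FPKM + 1), PCOS exceeded Control by 7.43, and the difference of PCOS-MV to PCOS was -6.96. Ranked among the 19730 genes of a library, Insl3 held places 14 to 27 in the PCOS libraries, 7063 to 12122 in the control libraries and 5020 to 9333 in the PCOS-MV libraries. The spread within PCOS was 13.5% of the mean, against 59.5% in Control and 56.4% in PCOS-MV. PCOS-MV replicate 1 held more Insl3 than any other library outside the PCOS group.

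In PCOS-MV vs Control, the only comparison tested for the members, Insl3 differed by 0.47 on the log2 scale (SE 0.45, 95% interval -0.57 to 1.51, limma adjusted p = 0.761, n = 4 per group). The exact two-sided permutation test of 4 against 4 gave p = 0.429, where the smallest possible p is 0.0286. Insl3 was higher in the PCOS-MV library in 10 of the 16 possible pairs. The interval leaves room for a PCOS-MV level on either side of that of Control.

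**Figure D1:**
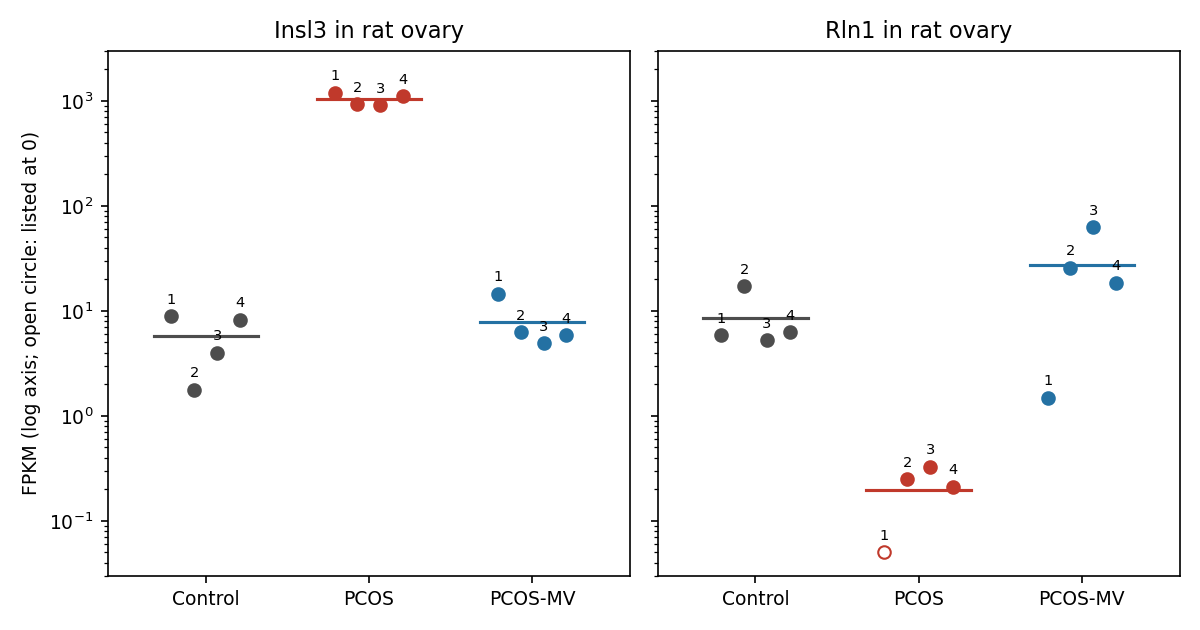
FPKM of Insl3 (left) and Rln1 (right) in each ovary library, on a shared log axis, with the replicate number above each point and a line at the mean of the 4 rats of a group. Open circles are values listed at 0, drawn at the foot of the axis. The PCOS libraries sit at 906 to 1188 FPKM for Insl3 and at 0 to 0.327 FPKM for Rln1, and Control and PCOS-MV overlap for both genes.

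Rln1, the relaxin gene of the corpus luteum, ran the other way. Rln1 (ENSRNOG00000060867) lies on chromosome 1 from 247483302 to 247486202 on the minus strand, with 2 exons and a transcript of 792 bases. It was at 5.84, 17.1, 5.22 and 6.21 FPKM in the control libraries. The PCOS libraries listed 0, 0.247, 0.327 and 0.212 FPKM, which corresponds to at most 7.8 fragments in a library. The PCOS-MV libraries held 1.48, 25.8, 62.5 and 18.4 FPKM. Every PCOS library was below every other library, and Rln1 in PCOS-MV ranged from below the lowest control library to well above the highest.

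The means of Rln1 were 8.59 ± 5.68 FPKM in Control, 0.196 ± 0.139 in PCOS and 27.1 ± 25.7 in PCOS-MV (SD, n = 4 each). The control mean was 43.7-fold and the PCOS-MV mean 138-fold above that of PCOS. With few fragments behind the PCOS values, these folds are rough. PCOS-MV replicate 3 weighed most on them, and without it the PCOS-MV mean was 15.2 FPKM, 77.6-fold above PCOS and 1.78-fold above Control. On the log2(FPKM + 1) scale the difference of PCOS to Control was -2.86 and that of PCOS-MV to PCOS 3.83, and with a pseudocount of 0.1 FPKM these differences became -4.87 and 5.82. Its place among the genes of a library was 4399 to 9634 in Control, 14756 to 17602 in PCOS and 969 to 12301 in PCOS-MV. In PCOS-MV vs Control the log2 difference was 0.97 (SE 0.90, 95% interval -1.08 to 3.02, limma adjusted p = 0.749), and the exact permutation test gave p = 0.343 with n = 4 per group. The 3.15-fold higher mean of PCOS-MV was thus not resolved with 4 rats per group, and the interval leaves room for a difference in either direction.

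Set against Rln1 within a library, Insl3 was far higher in every PCOS library, and neither gene was the higher throughout Control or PCOS-MV. FPKM is given per length, so the levels of both genes can be compared directly. In the PCOS libraries log2((Insl3 + 1)/(Rln1 + 1)) was 10.22, 9.53, 9.42 and 9.84. It was 0.53, -2.71, -0.32 and 0.35 in the control libraries, where the hormones were at like levels except in replicate 2, with 9.70 times more Rln1 than Insl3. In the PCOS-MV libraries it was 2.64, -1.88, -3.43 and -1.50. Rln1 exceeded Insl3 by 3.13 to 12.7 times in PCOS-MV replicates 2 to 4, while replicate 1 had 9.80 times more Insl3. That rat had the highest Insl3 and the lowest Rln1 of its group.

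**Figure D2:**
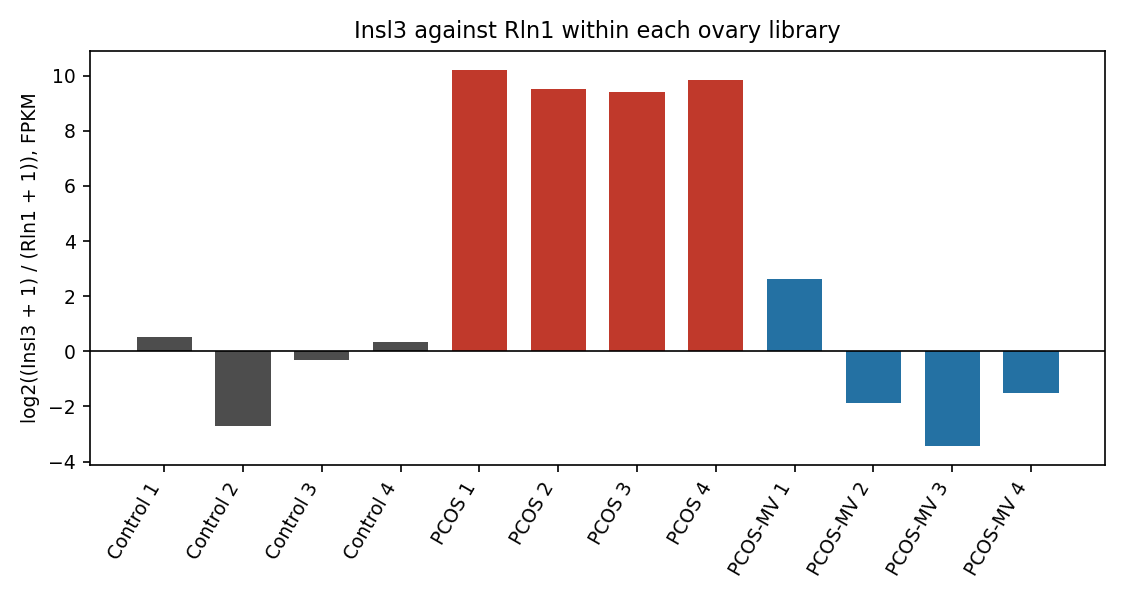
Bars give log2((Insl3 + 1)/(Rln1 + 1)) from the FPKM of each library, above 0 where Insl3 was the more abundant and below 0 where Rln1 was. The 4 PCOS libraries lie between 9.42 and 10.22, and the Control and PCOS-MV libraries lie between -3.43 and 2.64.

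The comparisons over all genes give the background for the gene lists that follow. Like the members, the lists were chosen with earlier results of these data known. The p-values of list genes are therefore not independent of that choice. Of the 13430 genes tested with limma, 11.9% were called higher and 15.6% lower in PCOS vs Control. In PCOS-MV vs PCOS, 14.3% were called higher and 11.4% lower. The PCOS libraries enter both comparisons, so a gene that is high or low in them moves in opposite directions by construction. In PCOS-MV vs Control, 0.00745% of the genes were called, which is 1 gene, Senp1, named after its value was seen (log2 difference 2.29, limma adjusted p = 0.000494). An unadjusted p under 0.05 was reached by 1142 genes there, against 671.5 expected if no gene differed. The median log2 difference over all genes was -0.03 in the first comparison and 0.03 in the second.

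Rxfp1, the relaxin receptor, was low in every ovary and lowest after letrozole and the diet, with or without MV. Rxfp1 (ENSRNOG00000024120) spans 178399274 to 178521038 on the minus strand of chromosome 2, with 18 exons. Its level was 0.0790, 0.0897, 1.42 and 0.0925 FPKM in the control libraries. In the PCOS libraries it was 0.00451, 0.0120, 0 and 0.00802 FPKM, and in the PCOS-MV libraries 0.0128, 0, 0.0156 and 0.01005 FPKM. These values correspond to 18.2 to 318.6 fragments per control library, 0 to 2.9 per PCOS library and 0 to 4.0 per PCOS-MV library. Every control library was above every PCOS and every PCOS-MV library, and the last 2 groups overlapped.

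Unlike its ligand gene Rln1, Rxfp1 in PCOS-MV did not overlap with Control. The exact permutation test of PCOS-MV vs Control gave p = 0.0286, the smallest that 4 against 4 allows. Among the 6300 genes with a mean above 0 and under 1 FPKM, 4.56% did not overlap between these groups, whereas 12.9% did not in PCOS vs Control, and 11.0% when PCOS-MV was set against PCOS. With all genes kept, limma gave a log2(FPKM + 1) difference of -0.40 (SE 0.26, 95% interval -1.01 to 0.22, adjusted p = 0.689), so the call was not made over all genes. The control mean of 0.421 ± 0.667 FPKM rested on replicate 3, which was 16.3 times the mean of the others. The log2(FPKM + 1) difference was -0.11 without this library, and the other controls were at 0.0871 ± 0.0072 FPKM (n = 3), 14.2-fold above PCOS and 9.08-fold above PCOS-MV. As Control replicate 3 was the highest control, leaving it out could not bring an overlap with either group. The exact permutation test of 3 against 4 for PCOS-MV was thereby bound to its smallest p, 0.0286, and adds no support.

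Most adipocyte markers, like Rxfp1, had a higher mean in Control than in the other groups. All 5 adipocyte markers were found, and Adipoq, the fat cell hormone adiponectin, was at 3.68 to 26 FPKM in Control, 0.654 to 2.95 in PCOS and 0.845 to 1.70 in PCOS-MV. Plin1, a coat protein of fat droplets, was at 0.750 to 3.51 FPKM in Control, 0.0364 to 0.323 in PCOS and 0.0489 to 0.161 in PCOS-MV. Lep was at 0.126 to 1.14 FPKM in Control and at no more than 0.175 FPKM elsewhere, and Cfd at 19.6 to 55.5 FPKM in Control against 9.45 to 21.5 FPKM in the other 2 groups. Fabp4, also used by vessel and immune cells, reached 33.8 FPKM in PCOS-MV. The uterine genes Hoxa10 and Hoxa11 were at 0 or below 0.05 FPKM throughout. Control replicate 3 held the highest Adipoq, Plin1 and Lep. In control replicates 1, 2 and 4 Adipoq was at 15.3, 3.68 and 7.93 FPKM and Rxfp1 at 0.0790, 0.0897 and 0.0925 FPKM. The part of attached fat or oviduct in the Rxfp1 level was not tested.

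Rxfp2, the INSL3 receptor, overlapped between the groups in all 3 comparisons, whereas the mean of Insl3 in PCOS was 181-fold that of Control and 131-fold that of PCOS-MV. Rxfp2 (ENSRNOG00000000897) lies on chromosome 12 from 6016884 to 6078411 on the minus strand, with 18 exons. It was at 0.265, 0.424, 1.72 and 0.636 FPKM in Control, at 0.275, 0.399, 0.621 and 0.356 in PCOS and at 0.103, 0.130, 0.215 and 0.377 in PCOS-MV. Control replicate 3 was the highest of the 12, and the lowest 2 values were in PCOS-MV. Its mean was 0.761 ± 0.656 FPKM in Control, 0.413 ± 0.148 in PCOS and 0.207 ± 0.124 in PCOS-MV (SD, n = 4). Without Control replicate 3, which was 3.89 times the mean of the other control libraries, the control mean was 0.442 ± 0.186 FPKM and 1.07-fold that of PCOS. In PCOS-MV vs Control the log2 difference was -0.49 (SE 0.23, 95% interval -1.03 to 0.05, limma adjusted p = 0.638 with all genes kept). The exact permutation test gave p = 0.0571 with n = 4 per group. Without Control replicate 3 the log2 difference was -0.25 and the exact permutation p was 0.114.

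**Figure D3:**
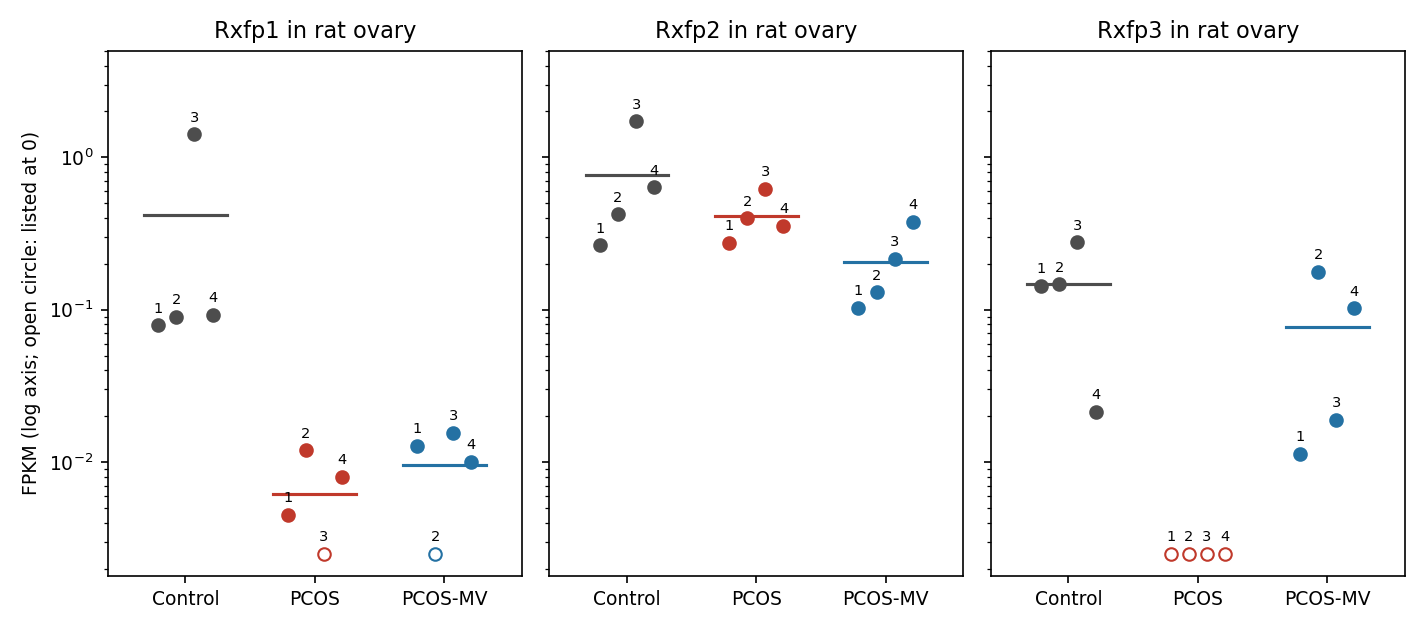
FPKM of Rxfp1, Rxfp2 and Rxfp3 in each ovary library, on a shared log axis, with the replicate number above each point, a line at the mean of the 4 rats and open circles for values listed at 0. For Rxfp1 the 4 control libraries lie at 0.0790 to 1.42 FPKM, above all PCOS and PCOS-MV libraries, and Rxfp2 overlaps between the groups.

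Relaxin-3 and the other family genes were at the edge of detection. Rln3 (ENSRNOG00000005911, chromosome 19, 25164497 to 25166528, minus strand) was at 0.125, 0, 0.191 and 0.0452 FPKM in Control. It was at 0.0283, 0.0616, 0 and 0.0595 FPKM in PCOS and at 0.0631, 0.249, 0 and 0 in PCOS-MV. No library held more than about 4.0 fragments of it, and a difference between groups was not detectable at this depth (log2 difference -0.02 in PCOS-MV vs Control, exact permutation p = 0.914, n = 4 per group). Insl6, a peptide gene best known from the testis that lies 6474 bases from Rln1 on the same strand, was at 0 to 0.137 FPKM in the 12 libraries. Rxfp3, the relaxin-3 receptor, was at 0.143, 0.147, 0.277 and 0.0213 FPKM in Control and at 0.0113, 0.178, 0.0189 and 0.102 in PCOS-MV. It was listed at 0 in all 4 PCOS libraries, where the other groups held 0.6 to 12.7 fragments per library. Insl5 and Rxfp4 were looked for by name and RefSeq synonym and were not found.

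By median level, Insl3 (6.10 FPKM) and Rln1 (6.03 FPKM) led the members in Control and overlapped, followed by Rxfp2 (0.530), Rxfp1 (0.0911) and Rln3 (0.0850). The ranges of Rxfp1 and Rln3 overlapped. In PCOS the order was Insl3, Rxfp2 (0.378 FPKM), Rln1 (0.230), Rln3 (0.0439) and Rxfp1 (0.00627), and Insl3 was apart from all others. In PCOS-MV Rln1 (22.1 FPKM) stood before Insl3 (6.07), with overlapping ranges, and Rxfp2 (0.173), Rln3 (0.0316) and Rxfp1 (0.0114) followed.

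The theca markers moved in the direction of Insl3. Of 8 markers tested, 5 rose and 1 fell in PCOS vs Control, with a list median of 0.57 on the log2 scale against -0.03 over all genes. In PCOS-MV vs PCOS, 5 fell and 0 rose, with a median of -0.54. Cyp17a1, the enzyme that makes androgens in theca cells, was at 63.5, 27.3, 17 and 30.7 FPKM in Control, at 1866, 1054, 655 and 1187 FPKM in PCOS and at 88.1, 1.57, 53.4 and 6.41 FPKM in PCOS-MV. It rose by 5.12 (limma adjusted p = 6.33e-05) and fell by 6 (limma adjusted p = 0.00439). Pdgfra, a receptor of theca and stromal cells, rose by 0.81 (limma adjusted p = 5.29e-05) and fell by 0.51 (limma adjusted p = 0.00121). The Hedgehog receptor gene Ptch1 fell by 0.43 in PCOS vs Control (limma adjusted p = 0.0293, not called in 6 of the 8 fits that left out a library). Apart from Cyp17a1, the markers that rose did so far less than Insl3. In bulk ovary, more or fewer cells of a type and more or less RNA per cell cannot be told apart.

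Most luteal markers fell with Rln1 in PCOS vs Control, and fewer were called as rising with it in PCOS-MV vs PCOS. Of 10 tested, 6 fell and 1 rose in PCOS vs Control (median -1.24), and 4 rose and 1 fell in PCOS-MV vs PCOS (median 0.57). With all 12 libraries in 1 model, 4 instead of 7 were called in PCOS vs Control. Akr1c18 (Akr1c3 in the file), which inactivates progesterone in the ageing corpus luteum, was at 833.4, 1658, 3428 and 2305 FPKM in Control, at 386, 221, 460 and 254 in PCOS and at 1466, 1618, 4692 and 2210 in PCOS-MV. It fell by 2.52 and rose by 2.81 (limma adjusted p = 0.00281 and 0.00152). A2m, a protease inhibitor of the rat corpus luteum, fell by 2.38 and rose by 2.20 (limma adjusted p = 0.0168 and 0.017), and the first of these calls was lost with the replicate number as a block (limma adjusted p = 0.0534). Ptgfr, the receptor through which prostaglandin ends luteal life, fell by 2.07 and rose by 1.97 (limma adjusted p = 0.00683 and 0.00859), and Star, which feeds cholesterol to steroid synthesis, fell by 1.70 and rose by 1.57 (limma adjusted p = 0.00241 and 0.00742). Lhcgr, the LH receptor shared by theca and luteal cells, was the 1 called marker that went against the list, with 1.39 and -1.89 (limma adjusted p = 0.0104 and 0.0269). No marker of either list was called in PCOS-MV vs Control. Only 0.00745% of all genes tested were called there, so this is no result about the lists and does not show a return to control levels.

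Within PCOS-MV the 2 hormones did not simply follow their markers. Replicate 1, with the most Insl3 and the least Rln1, also had the highest Cyp17a1 (88.1 FPKM) and Lhcgr (97.8 FPKM) and the lowest Akr1c18 (1466 FPKM) and Ptgfr (50.2 FPKM) of its group. Other luteal markers did not share this order, as the same library had the most A2m (78.4 FPKM), Scarb1 (1932 FPKM) and Cyp11a1 (2632 FPKM) of its group and the second highest Star (2105 FPKM). Replicate 3, with the most Rln1 (62.5 FPKM), had the most Akr1c18 (4692 FPKM), Ptgfr (173 FPKM) and Star (2891 FPKM). Replicate 2 had the lowest Cyp17a1 (1.57 FPKM) but the second highest Insl3 (6.27 FPKM). Among controls, the most Rln1 was in replicate 2 (17.1 FPKM), and the most Akr1c18 (3428 FPKM) in replicate 3.

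Of 9 transcription factors known to act on the Insl3 gene in theca or Leydig cells, 4 rose and 2 fell in PCOS vs Control. In PCOS-MV vs PCOS 4 fell and 1 rose, and the list medians were 0.04 and -0.19. Nr5a1, the steroidogenic factor that drives gonadal steroid genes, was at 47.5 to 59.1 FPKM in Control, 104.9 to 122.5 in PCOS and 49.6 to 79.3 in PCOS-MV. It rose by 1.04 and fell by 0.75 (limma adjusted p = 7.52e-05 and 0.00786). Nr0b1, which encodes DAX-1, a repressor of NR5A1 targets, was at 1.92, 4.35, 2.62 and 6.49 FPKM in Control, at 27.9, 62.6, 43.4 and 28.9 in PCOS and at 2.31, 0.543, 5.81 and 1.21 in PCOS-MV. Its difference was the largest of the list, 3.12 and -3.74 (limma adjusted p = 0.000315 and 0.000803). Gata4 rose by 0.88 and fell by 0.46 (limma adjusted p = 0.000285 and 0.0393), and Nr2f2, also counted as a theca marker, rose by 0.67 and fell by 0.57 (limma adjusted p = 0.000881 and 0.00679). Klf6 fell by 0.58 in PCOS vs Control (limma adjusted p = 0.00848). Nr4a1, Gata6 and Jun passed in neither comparison. Gata4, Nr2f2, Ptgfr and Star are named after their values were seen.

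**Figure D4:**
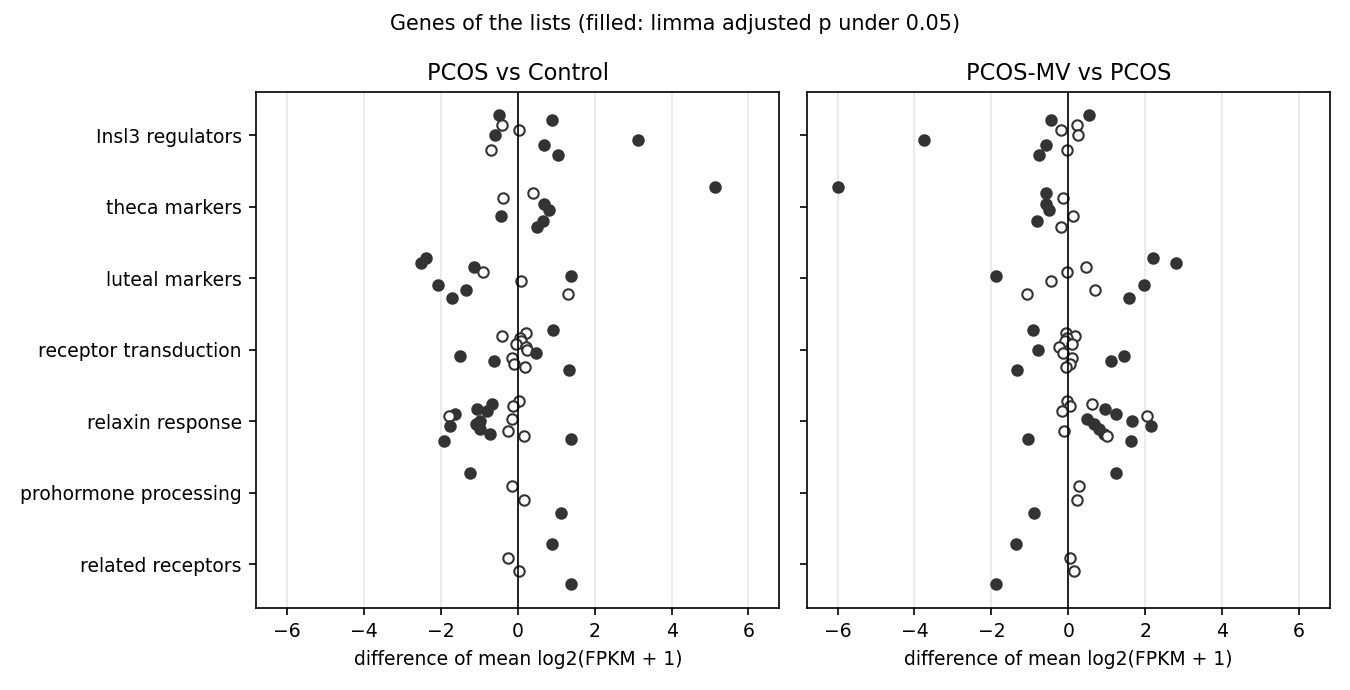
Each point is a gene of a list with a mean of at least 1 FPKM, placed by its difference of mean log2(FPKM + 1) in PCOS vs Control (left) and PCOS-MV vs PCOS (right), filled where limma gave an adjusted p under 0.05. Cyp17a1 lies farthest out, at 5.12 and -6, and 11 of 17 relaxin response genes are filled on the left.

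Among the relaxin response genes, the matrix, protease and vessel genes through which relaxin is known to act, more fell than rose in PCOS. The list does not sort them by whether relaxin raises or lowers them, so a shared fall is not read as a relaxin response. Of 22 listed, 21 were found and 17 tested. In PCOS vs Control 10 fell and 1 rose (median -0.80), and in PCOS-MV vs PCOS 9 rose and 1 fell (median 0.80). Vegfa, the vessel growth factor, was at 54.5, 51, 52 and 40.1 FPKM in Control, at 14.8, 9.59, 13.5 and 11.7 in PCOS and at 38.2, 43, 50.4 and 32 in PCOS-MV. It fell by 1.92 and rose by 1.64 (limma adjusted p = 4.45e-05 and 0.000365). Plat, the tissue plasminogen activator, fell by 1.75 and rose by 2.16 (limma adjusted p = 0.00481 and 0.0116), and Mmp2, a gelatinase, fell by 0.98 and rose by 1.65 (limma adjusted p = 0.0128 and 0.0174). Timp2, an inhibitor of such proteases, was the 1 called gene that moved the other way, with 1.38 and -1.06 (limma adjusted p = 2.14e-05 and 0.00133). The endothelial markers moved alongside, as all 4 tested fell in PCOS vs Control (median -0.73) and 2 rose in PCOS-MV vs PCOS. The fall of Tek, an endothelial receptor, was not called in 5 of the 8 fits without 1 library (limma adjusted p up to 0.0793), nor with the replicate number as a block (0.0728). Kdr, the receptor for VEGFA on endothelium, was at 20.9 to 28.5 FPKM in Control, 8.85 to 12.9 in PCOS and 17.9 to 23.2 in PCOS-MV. The part of endothelial cells in this list was not tested.

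Of 17 genes listed for transduction from relaxin receptors, 15 were tested. In PCOS vs Control 3 rose and 2 fell (median 0.08), and in PCOS-MV vs PCOS 2 rose and 3 fell (median -0.05). These counts are near the 11.9% higher and 15.6% lower over all genes in the first comparison and the 14.3% and 11.4% in the second, so they are no result about the list. Adcy5, a cyclase that makes cyclic AMP, rose by 0.92 and fell by 0.92 (limma adjusted p = 0.0023 and 0.00104). Prkar2b, a regulatory subunit of protein kinase A, rose by 1.33 and fell by 1.34 (limma adjusted p = 0.00408 and 0.00848). Pde4d, which breaks cyclic AMP down, fell by 1.49 and rose by 1.46 (limma adjusted p = 0.00165 and 0.0109), and Prkaca, the catalytic subunit, fell by 0.62 and rose by 1.10 (limma adjusted p = 0.0155 and 0.00178). Gonadotropin receptors use the same messenger, so these genes are not particular to the relaxin family.

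Among 6 enzymes that cut peptide precursors, 4 were tested. Pcsk6, a convertase of follicles, rose by 1.12 in PCOS vs Control and fell by 0.89 after MV (limma adjusted p = 0.000104 and 0.0219). The second call was lost without PCOS replicate 2, 3 or 4, with an adjusted p of up to 0.0567 from limma. Cpe, which trims cut precursors, fell by 1.25 and rose by 1.25 (limma adjusted p = 0.00137 and 0.00313). Furin (27.7 to 44.1 FPKM) and Pcsk5 (10.1 to 24.4 FPKM) were not called, and Pcsk1 and Pcsk2, the convertases of endocrine cells, were at no more than 0.911 FPKM. Of the 6 related leucine-rich repeat receptors, 4 were tested, and 2 rose in PCOS vs Control and fell in PCOS-MV vs PCOS. These were Lhcgr, given above, and Fshr, the FSH receptor of granulosa cells (0.90 and -1.37, limma adjusted p = 0.0107 and 0.00206). With all 12 libraries in 1 model, 1 instead of 2 was called in PCOS vs Control. The fall of Lhcgr after MV was not called without PCOS replicate 1, 2 or 4 or PCOS-MV replicate 4 (limma adjusted p up to 0.0683). Lgr4 (31.2 to 50.4 FPKM) and Lgr6 (4.02 to 10.9 FPKM) were not called. Lgr5 was at 0.301 to 0.803 FPKM in Control, 0.0273 to 0.0968 in PCOS and 0.147 to 0.410 in PCOS-MV, and Tshr at 0.0825 to 0.303 FPKM apart from Control replicate 3.

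The markers of other cells were counted in the same way. Over all genes 11.9% were called higher and 15.6% lower in PCOS vs Control, and 14.3% and 11.4% in PCOS-MV vs PCOS. Among 9 granulosa markers 4 rose in PCOS vs Control (median 0.23) and 3 fell in PCOS-MV vs PCOS (median -0.37). Some granulosa markers that were not called had a negative difference in PCOS vs Control, so the list did not rise as a whole. Cyp19a1, the aromatase that letrozole inhibits, rose by 1.74 and fell by 2.81 (limma adjusted p = 3.64e-05 and 0.0113). None of the 4 oocyte, 5 smooth muscle, 2 uterus and oviduct and 1 cilia markers tested passed limma in either comparison. Of 5 leukocyte markers, 2 rose in PCOS vs Control, and 1 rose and 2 fell in PCOS-MV vs PCOS. All 3 adipocyte markers tested fell in PCOS vs Control and 1, Fabp4, rose in PCOS-MV vs PCOS. The fall of Cfd was not called in 6 of the 8 fits that left out a library (limma adjusted p up to 0.0745), nor with the replicate number as a block (0.0757), and the rise of Fabp4 not without PCOS replicate 3 (limma adjusted p = 0.0532).

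Some genes followed the levels of Insl3 and Rln1 closely. Pearson r of log2(FPKM + 1) was computed over the 12 libraries for 13383 genes and is given as a description, since the libraries form 3 groups and the PCOS libraries alone set it high. Those most like Insl3 were Ces1d (r = 0.988), Ogdhl (0.987), Tbc1d24 (0.987) and Lpo (0.986). Ces1d, a carboxylesterase that splits lipid esters, was at 1.59 to 7.74 FPKM in Control, 291.8 to 356.5 in PCOS and 2.05 to 7.95 in PCOS-MV, and it kept r = 0.885 after the group means were taken away. Lpo, a peroxidase, was at 0.208 to 0.243, 6.61 to 9.21 and 0.146 to 0.522 FPKM in the same order, with r = 0.231 after that step. Among the theca markers, r with Insl3 ranged from -0.537 for Ptch1 to 0.912 for Pdgfra, and Cyp17a1 reached 0.900, or 0.431 without the group means.

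The genes most like Rln1 were Fam3c (r = 0.961), Sdf2l1 (0.959), Sdf2 (0.951), Mmp12 (0.942) and Mfsd1 (0.937). Sdf2l1, a protein of the endoplasmic reticulum, was at 9.37 to 13.7 FPKM in Control, 6.72 to 7.96 in PCOS and 9.07 to 20.4 in PCOS-MV, and kept r = 0.938 without the group means. Mmp12, the macrophage elastase, was at 3.92 to 17.2, 0.643 to 1.53 and 6.93 to 26.1 FPKM. Like Rln1, it was highest among controls in replicate 2. With Rln1, the 10 luteal markers ranged from r = -0.778 for Lhcgr to 0.837 for Akr1c18, and these 2 came to -0.398 and 0.390 without the group means. By the deviations from the group means alone, the closest genes to Insl3 were Tbcc (r = 0.921), Ogfrl1 (0.893), Ces1d, Atpaf1 (0.862) and Znf48 (0.849). Those closest to Rln1 by this measure were AABR07072639.2 (0.942), Sdf2l1, Sh3kbp1 (0.929), Psenen (0.899) and Zbtb33 (0.898), and 1 of 5 genes was shared between the measures for each hormone. Over the 12 libraries r with Rln1 was 0.509 for AABR07072639.2, 0.24 for Psenen and 0.292 for Zbtb33. For Ogfrl1 with Insl3 it was -0.556. Zbtb33 was listed at 0 in PCOS-MV replicate 1, which had the least Rln1 of its group.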

How the data were processed

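Ovarian RNA from 12 rats was sequenced, with 1 library per rat and 4 rats per group, grouped by the sample titles. The deposited values are FPKM, which the authors computed from reads counted per gene. The study's methods name HISAT2 and featureCounts, whereas the submitters' processing notes name STAR 2.5.1b and HTSeq 0.6.0. The genome build is not given in the sources used here. Nor is strand, so reads of a gene and an overlapping antisense gene cannot be told apart. The authors' own group means, log2 fold changes and p-values stand in the same table and were not used. The values did not differ between the 26928 transcript lines of the 19730 genes, and 1 line per gene was kept. Some list genes were matched through RefSeq synonyms.

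The tests were run with limma 3.58.1 under R 4.3.3 (eBayes with trend) on log2 values after 1 FPKM was added. Groups were fitted 2 at a time without covariates, and 13430 genes entered, those whose mean over the 12 libraries reached 1 FPKM. Calls were made at a Benjamini-Hochberg adjusted p under 0.05. This scale understates changes of low genes. The method was tested on simulated data. Exact two-sided permutation tests were used for single genes. Python 3.11.15 and pandas 2.3.3 prepared the tables. The members and lists were chosen with earlier results of these data known. Named are the family genes, the 5 genes most like Insl3 and Rln1 by each measure, the genes with the 2 largest differences in each direction among those called in each list, and genes of lists of 6 or fewer. Others were chosen after their values were seen. A few genes that enter the counts are not reported here by name. Alternatives covered the pseudocount, the filter, 1 model for all libraries, a replicate block, rescaled libraries, a 2-fold threshold and each library left out. Library depth was estimated from the steps of low FPKM values after the data were seen. The paper speaks of 3 biological replicates in its differential expression test, whereas all 4 libraries of each group entered here.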

Additional observations from a re-analysis of the deposited data

Results flagged for a closer look

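In 11 of 155 groups of 4 libraries, 1 library lay so far from the others that its gap to the nearest took up more of the whole range than Dixon's test allows at 95%, where chance alone gives about 7.8. Insl3 was at 14.5 FPKM in PCOS-MV replicate 1 and at 4.91 to 6.27 FPKM in the rest of the group. Rln1 was at 17.1 FPKM in Control replicate 2 against 5.22 to 6.21 FPKM. Rxfp1 was at 1.42 FPKM in Control replicate 3 against 0.079 to 0.0925 FPKM.

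Control replicate 3 was also apart for Plat (86 FPKM against 30.9 to 37.2), Pcsk1 (0.911 FPKM against 0 to 0.00602) and Tshr (3.78 FPKM against 0.146 to 0.303). Mmp12, a gene most like Rln1, was at 17.2 FPKM in Control replicate 2 against 3.92 to 5.56 FPKM. In PCOS replicate 2 it was at 0.643 FPKM against 1.5 to 1.53 FPKM.

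Zbtb33 was listed at 0 in PCOS-MV replicate 1 and at 7.03 to 8.43 FPKM in the others. Tshr was at 0.134 FPKM in that library against 0.0825 to 0.0894 FPKM. Timp2 was at 131 FPKM in PCOS-MV replicate 3 against 187 to 198 FPKM.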

How the results depend on the processing

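Of 406 values computed under other settings, 373 stayed within the spread between replicates or within 1.5 times of the count reported. Only Rln3 changed the sign of a member's log2 difference, when a library was left out (-0.02 to 0.08 for PCOS-MV to PCOS and -0.09 to 0.02 for PCOS-MV to Control). With a pseudocount of 0.1 FPKM the log2 differences grew for the low members. Rln1 came to -4.87 in PCOS vs Control, and to 5.82 once PCOS-MV was set against PCOS. In the order PCOS vs Control, PCOS-MV vs PCOS, PCOS-MV vs Control, the differences were -0.38, 0.20 and -0.18 for Rln3 and -1.57, 0.05 and -1.53 for Rxfp1. Rxfp2 came to -0.78 in the second of these and to -1.30 in the third. The added 2-fold threshold left 907 of 3684 genes called in the first comparison and 751 of 3448 in the second. The 5 genes most like each hormone shared 1 gene with the list by deviations and 0 with that by Spearman's rho, for Insl3 and for Rln1.

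Leaving out each library in turn gave, in the same order of comparisons, 2762 to 3915, 2445 to 3354 and 1 to 4 genes, with 4 without Control replicate 3. The log2 difference of Insl3 then ranged from 7.06 to 7.67, from -7.27 to -6.8 and from 0.10 to 0.71, and that of Rln1 from -3.02 to -2.50, from 3.19 to 4.75 and from 0.34 to 1.90. For Rxfp1 it ranged from -0.50 to -0.11 against Control, for PCOS and for PCOS-MV alike, and -0.11 was the value without Control replicate 3.

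The replicate numbers were not taken as pairing the rats, since in no comparison did every pair of libraries with the same number have deviations that correlated above 0.1. The correlations were -0.033 to 0.024 in PCOS vs Control and -0.053 to 0.216 in PCOS-MV vs Control. For PCOS-MV against PCOS they were 0.035 to 0.172, with 3 of 4 above 0.1, and 7 of 8 libraries correlated best with their own number, a hint from the data and not from the design, against 0 and 2 of 8 in the other comparisons. With the number as a replicate block, 2905, 3079 and 0 genes were called in the 3 comparisons (3684, 3448 and 1 without it), and limma with the block gave 1240 genes an unadjusted p under 0.05 in PCOS-MV vs Control. The members' log2 differences do not depend on the block. The depth limits Rln3 in all groups, Rxfp1 in PCOS and PCOS-MV, and Rln1 in PCOS, which rest on a few fragments per library.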

Other observations

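The file places an unnamed antisense gene, AABR07024869.1, across Insl3 on the opposite strand. It was at 0.2997 to 0.403 FPKM in Control, 0.830 to 1.09 in PCOS and 0.520 to 0.802 in PCOS-MV. Jak3, which ends 689 bases before Insl3 on the same strand, was at 4.26 to 5.43 FPKM in Control, 9.14 to 12.7 in PCOS and 5.21 to 8.97 in PCOS-MV, and B3gnt3, 1251 bases beyond Insl3, was at 0.0752 to 2.53 FPKM over all libraries. These neighbours were looked up after the values of Insl3 were known. Around Rln1, Plgrkt was at 3.47 to 6.07 FPKM in all libraries and Jak2 at 17.6 to 33.5 FPKM in Control, 33.1 to 44.8 in PCOS and 19.7 to 26.1 in PCOS-MV.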
